A study of Mus musculus with 2 samples.

Results

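Barcodes of thymic medullary epithelial cells that carried collagen VI transcripts were taken from 1 droplet library of sorted mouse thymus. A droplet barcode was a member when it had at least 500 detected genes, under 15% of its unique molecular identifier (UMI) counts from mitochondrial genes and at least 3 UMIs of Col6a1 and Col6a2 together. It also needed at least 1 UMI of the epithelial gene Epcam, none of the leukocyte gene Ptprc (CD45), and under 0.3% of its UMIs from the chemokine gene Ccl21a. A total of 107 barcodes met the rule, out of 1739 epithelial barcodes (Epcam at least 1, Ptprc 0), 2527 barcodes that passed the first pair of filters and 3447 barcodes deposited. A UMI marks 1 captured RNA molecule. Levels are given below as CPM, the UMIs of a gene in the summed barcodes scaled to the same total of gene UMIs in every sum.

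Thymi were taken from females, 6 weeks old, of the inbred strains NOD, BALB/c and C57BL/6 (B6), 2 mice of each, with no treatment or transgene named. Collagenase and dispase freed the cells, magnets removed CD45+ cells, and medullary epithelial cells with low MHC class II (mTEClo) that lacked Pdpn and CD104 on their surface were sorted. Each mouse carried its own hashtag antibody, and all 6 were pooled into the single library, so strain differs between mice but not between captures. Both NOD hashtags have the same replicate number in the labels, and these mice are called NOD 1 and NOD 2 here.

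Collagen VI is a beaded-filament collagen of the extracellular matrix that sits near basement membranes. In its usual form the chains encoded by Col6a1, Col6a2 and Col6a3 join into a heterotrimer, and the Col6a4, Col6a5 and Col6a6 chains can take the place of Col6a3. Fibroblasts and other mesenchymal cells are its best known source. In the thymic medulla, immature epithelial cells that secrete Ccl21a and carry Krt5 and Krt14 stand beside cells that pass through an Aire stage and mimetic cells that take on programs of tuft, microfold, keratinocyte, muscle and other lineages.

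The 2 genes that chose the cells lie on the minus strand of chromosome 10, Col6a2 at chr10:76595762-76623630 and Col6a1 at chr10:76708792-76726168 (mm10, GENCODE M21). Their RefSeq promoters (GRCm38.p6, 250 bases before to 50 after the annotated start) are shown because the rule used both genes. Capitals mark GC boxes (GGGCGG or its complement CCGCCC). The Col6a1 window is chr10:76725995-76726294 and the Col6a2 window chr10:76623355-76623654, both minus strand.
Col6a1: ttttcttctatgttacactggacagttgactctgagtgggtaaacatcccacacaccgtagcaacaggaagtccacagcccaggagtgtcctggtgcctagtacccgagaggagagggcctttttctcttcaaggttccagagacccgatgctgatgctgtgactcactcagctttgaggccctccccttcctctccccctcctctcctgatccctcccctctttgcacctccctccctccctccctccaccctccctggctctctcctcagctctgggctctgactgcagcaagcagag
Col6a2: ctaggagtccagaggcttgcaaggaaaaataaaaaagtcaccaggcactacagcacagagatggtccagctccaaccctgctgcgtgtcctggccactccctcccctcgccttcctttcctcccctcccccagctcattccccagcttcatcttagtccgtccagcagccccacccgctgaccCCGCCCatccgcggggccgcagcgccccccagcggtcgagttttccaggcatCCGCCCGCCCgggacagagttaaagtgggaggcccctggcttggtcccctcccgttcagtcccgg
The Col6a1 window held 0 GC boxes and 3 CpG dinucleotides at 57.3% G and C, and the Col6a2 window held 3 GC boxes and 16 CpG dinucleotides at 64.3%. Over all 32851 mouse promoters of the same length, 35.7% held a GC box and the median was 7 CpG dinucleotides. On either strand, neither window held the TATA box TATAAA (found in 13.6% of all promoters), the motif CCAAT (in 37.4%) or the E-box CACCTG (in 20.2%). A second Col6a2 start (chr10:76623581-76623880) had 1 GC box and 6 CpG dinucleotides. A match of letters describes the window and shows no bound factor.

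Both collagen VI genes were found in most members. Of the 107 barcodes, 91 held UMIs of both genes, 9 held Col6a1 alone and 7 held Col6a2 alone. The summed count ran from 3 to 42 UMIs with a median of 5, with 27 barcodes at 3 UMIs, 17 at 4 and 63 at 5 or more. Col6a1 had 408 UMIs in all (0 to 17 a barcode, median 3), and Col6a2 had 383 (0 to 25, median 2). These counts chose the members and are a description. Just outside the threshold, 29 epithelial barcodes under the Ccl21a bound held 2 collagen VI UMIs, 101 held 1 and 1169 held 0. The members at 3 UMIs (27 barcodes) had 840 CPM of Krt5, 598 CPM of Nhs and 188 CPM of Antxr1, and those just outside at 2 UMIs (29 barcodes) had 747, 113 and 64.7 CPM of the same genes. Kcnip4 ran the other way, at 56.7 CPM in members at 3 UMIs and 295 CPM in barcodes at 2 UMIs.

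**Figure D1:**
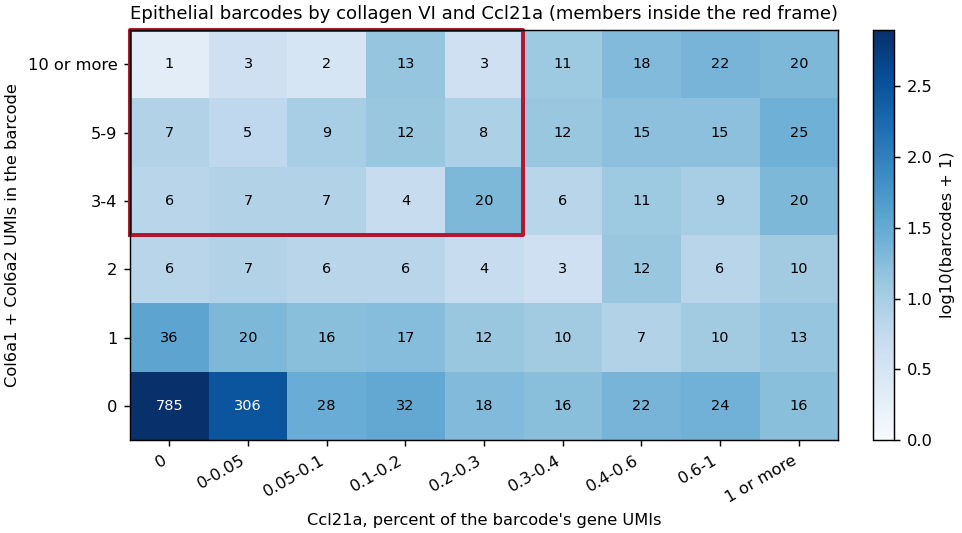
Epithelial barcodes counted by their Ccl21a share (percent of gene UMIs) and by their Col6a1 plus Col6a2 UMIs, with the number of barcodes in each cell of the grid. The rule keeps the 107 barcodes with at least 3 collagen VI UMIs and under 0.3% Ccl21a; a further 184 with at least 3 collagen VI UMIs lie above that bound.

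The other chains of the family were nearly absent from the members. Col6a3 had 0 UMIs in all 107 barcodes, and it was likewise at 0 in the 333 epithelial barcodes above the Ccl21a bound (called Ccl21a-high below). After thinning to 5000 UMIs, 0 of 92 members held Col6a3, which allows a share of up to 3.93% (95% Clopper-Pearson interval, counting error only). Col6a4 was found in 5 members (2.42 CPM), Col6a5 in 2 members (0.97 CPM) and Col6a6 in none. These data therefore showed the transcripts of 2 chains and few or none of the other 4 at this depth.

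Most genes of the fibroblast list were at 0 or too low to test in the members. Pdgfra, Col1a1, Col1a2, Dpt and Mfap5 were at 0 in all 107 members, Col3a1 was at 1.45 CPM, Lum at 0.97 CPM and Dcn at 7.75 CPM. Of the 12 fibroblast marker genes, 3 were high enough to test in 4 mice and 0 changed between members and other epithelial barcodes. Over all genes tested 1.73% passed in that comparison. Gsn, an actin-severing protein gene that epithelium also expresses, was at 230, 245, 303 and 682 CPM in members (NOD 1, NOD 2, BALB/c 1, BALB/c 2), against 189, 356, 165 and 183 CPM in the others (log2 0.71 ± 0.40, SE, n = 4, edgeR adjusted p = 0.377). The summed level of those 3 ran from 308 to 725 CPM over the 4 mice in members and from 201 to 425 CPM in other epithelial barcodes. The pericyte genes Kcnj8, Abcc9 and Ndufa4l2 and the endothelial genes Cdh5, Kdr and Tie1 were at 0. Rgs5, a G protein regulator gene of pericytes, was at 571 and 425 CPM in NOD members and 109 and 106 CPM in BALB/c members, against 276, 280, 214 and 213 CPM in the other barcodes of the same mice (log2 0.03 ± 0.45, adjusted p = 0.983), so NOD members lay above and BALB/c members below their own other barcodes. In Ccl21a-high barcodes it was at 709, 612, 593 and 567 CPM. The part of such cells in the results was not tested. Of the 8 pericyte markers 2 were tested and 0 changed (136 to 639 CPM summed in members, 228 to 312 CPM in other epithelial barcodes), and of the 8 endothelial markers 0 could be tested. Of the 13 leukocyte markers 5 were tested and 0 changed (159 to 923 CPM in members, 522 to 1191 CPM in other epithelial barcodes). In 162 leukocyte-type barcodes (Epcam 0, Ptprc at least 1, median 5676 UMIs) a collagen VI UMI was found in 1 barcode (0.617%), against 10.0% of the 1299 other epithelial barcodes under the Ccl21a bound (median 17587 UMIs).

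Of the genes of medullary epithelium, Krt5, Krt14, Trp63 and Cd74 were found in most members and Aire in few. Krt5, a basal keratin, was present in 102 of 107 barcodes, the basal keratin Krt14 in 92, the epithelial transcription factor gene Trp63 in 84 and the MHC class II invariant chain gene Cd74 in 105. Aire, which drives tissue-restricted antigen expression in mature medullary cells, was present in 12. Thinned to 5000 UMIs a barcode, which left out 15 members, Krt5 was found in 88.0% of members, 100% of Ccl21a-high barcodes with at least 3 collagen VI UMIs, 22.1% of other epithelial barcodes under the bound and 4.55% of leukocyte-type barcodes. Krt14 was found in 71.7% of members, 98.8% of those Ccl21a-high barcodes and 22.5% of other epithelial barcodes under the bound. In the same order, the simple epithelial keratin gene Krt8 was found in 76.1%, 93.4% and 88.2%, and Trp63 in 53.26%, 74.85% and 23.52%. Cd74 was found in 94.57% of members, 72.91% of other epithelial barcodes under the bound and 40.91% of leukocyte-type barcodes. The label of a medullary epithelial cell thus matched the markers, and the members' shares of Krt5 and Krt14, but not of Krt8, lay nearer to those of the Ccl21a-high barcodes. The surface proteins sorted against were not judged by transcripts, and Itgb4, which encodes CD104, was at 116 CPM in members and 57.1 CPM in other epithelial barcodes.

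The Ccl21a bound divided a larger collagen VI population. Of 291 epithelial barcodes with at least 3 collagen VI UMIs, 184 were Ccl21a-high, and 76.6% of all Ccl21a-high barcodes held a collagen VI UMI. Within the members the Ccl21a share had a median of 0.132%, with 14 barcodes at 0 and 31 between 0.2% and 0.3%. A further 29 barcodes with collagen VI lay just outside, between 0.3% and 0.4%. The counts showed no gap at the bound.

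The members were shallower than the remaining epithelial barcodes and had a different make-up of RNA. They had a median of 10982 UMIs (2307 to 129853) and 3734 genes, against 16644 UMIs and 4696 genes in the other 1632 epithelial barcodes. Mitochondrial genes gave a median of 4.55% and 3.26% in the members of the NOD mice and 2.58% and 2.76% in those of the BALB/c mice. In the other epithelial barcodes they gave 1.43% and 1.42% in the NOD mice and 2.15% and 2.43% in the BALB/c mice. Transcripts of genes that span 200 kb or more made up a median of 9.1% of a member's UMIs against 7.61% of another epithelial barcode's, and ribosomal protein genes made up 3.55% against 6.46%. Depth, mitochondrial share and the share of long genes moved together with membership, and their part in the gene differences below was not tested.

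Part of the members carried programs of mimetic lineages. A barcode was counted for a lineage list when it held at least 3 of its genes and at least 10 of their UMIs. This minimum was not scaled to depth, so deeper barcodes pass it more easily, and the members were the shallower class. By that count 47 members (43.9%) passed at least 1 list, against 1152 of 1632 (70.6%) other epithelial barcodes, and those 47 held 73.7% of the members' UMIs. Keratinocyte genes were passed by 20 members, microfold genes by 14, cell cycle genes by 11, tuft genes by 8, muscle genes by 7, ciliated genes by 6, neuroendocrine genes by 3 and enterocyte genes by 1. Of the 47, 18 carried no single mouse's hashtag. No doublet caller was run, so a droplet with a collagen VI cell and a mimetic cell of the same mouse is not told apart from 1 cell with both programs.

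The 60 members that passed no lineage list were shallower than the 47 that passed one, with medians of 7714 and 26407 UMIs. Both sets had a median of 5 collagen VI UMIs, and the floor of 3 UMIs raises the collagen VI CPM of shallow barcodes, so that level is not compared. The 60 held 359 CPM of Antxr1, 849 CPM of Nhs and 5802 CPM of Rbfox1, and the 47 held 32.8, 111 and 761 CPM of the same genes. Krt5 was at 1365 CPM in the first set and 1280 CPM in the second. The 60 also had the larger share of long genes (median 12.8% against 5.82%) and of mitochondrial UMIs (3.88% against 1.42%), and the smaller share of ribosomal protein UMIs (2.21% against 8.31%). Antxr1 also followed the Ccl21a share within the members. It was at 0 CPM in the 14 members without Ccl21a, which all passed a lineage list, 92.6 CPM in the 33 with some Ccl21a under 0.1% and 195 CPM in the 60 between 0.1% and 0.3%. All these splits are within 1 pool of barcodes and are given as values without a test.

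**Figure D2:**
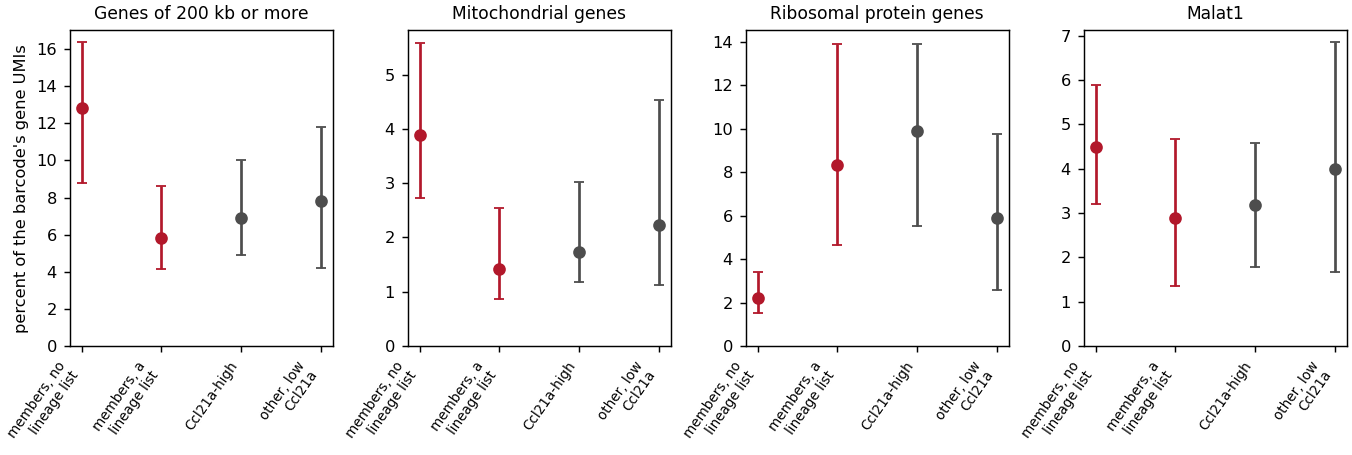
Share of each barcode's gene UMIs (percent) from genes spanning at least 200 kb, mitochondrial genes, ribosomal protein genes and Malat1, for members that passed no lineage list, members that passed one, Ccl21a-high barcodes and the other epithelial barcodes under the Ccl21a bound; points are medians and bars run from the lower to the upper quartile. Members without a lineage list have the highest share of long genes (12.8%) and the lowest of ribosomal protein genes (2.21%).

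To ask which genes set the members apart, their UMIs were summed per mouse and compared with the sum of the other epithelial barcodes of the same mouse. The 4 NOD and BALB/c mice entered the fit, with 15, 21, 17 and 24 members and 295941, 334203, 220820 and 319802 UMIs. The B6 mice had 1 and 4 members and were left out. Of 10479 genes tested, 181 (1.73%) passed an adjusted p of 0.05 in the quasi-likelihood test of edgeR with the mouse as a block, 94 higher in members (0.897%) and 87 lower (0.83%). Genes used by the rule are not counted. The replicates are mice, 2 of each strain. With the mouse as a block, the p-values rest on how the difference between members and others varied from mouse to mouse.

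The genes with the largest increases held a collagen receptor, a matrix protease and signalling genes. Antxr1, a membrane receptor that binds collagens, was at 132 and 162 CPM in the members of the NOD mice and 217 and 131 CPM in those of the BALB/c mice, against 55.2, 68.9, 48.5 and 51.0 CPM in the other barcodes of the same mice. Every mouse was higher in members, and the groups did not overlap (log2 difference 1.57 ± 0.21, SE, n = 4 mice, edgeR adjusted p = 0.0198). The largest changes were named only with the same direction in every mouse, so that agreement is no added support. Adamts9, a secreted protease that cleaves matrix proteoglycans, was at 365, 566, 507 and 532 CPM in members (NOD 1, NOD 2, BALB/c 1, BALB/c 2), against 151, 175, 210 and 156 CPM in the other barcodes. Its groups also stayed apart, with a log2 difference of 1.57 ± 0.18 (SE, n = 4, edgeR adjusted p = 0.0133). Nhs, an actin-regulating gene on the X chromosome, was at 351, 449, 806 and 335 CPM in members, against 170, 129, 115 and 107 CPM in the others (log2 difference 1.89 ± 0.24, adjusted p = 0.0198). Rbfox1, a splicing regulator, was at 2085, 2412, 4764 and 3621 CPM in members, against 693, 924, 973 and 960 CPM in the others (log2 difference 1.86 ± 0.17, adjusted p = 0.00704). For Rbfox1 both BALB/c mice lay above both NOD mice, while for Nhs the BALB/c mice held the highest and the lowest value of the 4.

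Others rose by similar amounts. Boc, a hedgehog co-receptor, was at 132, 144, 186 and 141 CPM in members, against 44.1, 77.0, 43.8 and 47.1 CPM in the others. Pde7b, a cAMP phosphodiesterase, rose most (log2 difference 1.90 ± 0.35, adjusted p = 0.0406), but with 57.4, 165, 127 and 40.7 CPM in members its mice spread widely. Edar, the ectodysplasin receptor, had a log2 difference of 1.81, the adaptor gene Fyb2 1.73, the noncoding Mir100hg 1.71, Junos 1.64, the Hippo pathway gene Frmd6 1.62, the ligand gene Bmp6 1.61 and the interferon-inducible Ifi211 1.83, with adjusted p-values between 0.0198 and 0.0406. Ces1b, a carboxylesterase gene (log2 1.62, adjusted p = 0.0476), was at 115 and 86.8 CPM in NOD members and 18.1 and 9.38 CPM in BALB/c members, against 30.6, 33.9, 6.41 and 4.25 CPM in the others, so that the lowest NOD value of the others lay above both BALB/c values of members. Many of these are long genes. Among the 87 genes higher in members that had an annotated span, the median was 177 kb and 46% spanned 200 kb or more, against 26.6 kb and 6.12% of all genes tested and 21.3 kb and 17.5% of the genes lower in members.

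The genes with the largest decreases included genes of tuft, neuroendocrine and cornified cells. Bmx, a tyrosine kinase gene, had 2 UMIs in the members of all 4 mice, and its summed CPM was 108 times lower than in the other barcodes (exact 95% counting interval 29.9 to 893). It stood at 36.1, 143, 216 and 207 CPM in the other barcodes. Alox5ap, of leukotriene synthesis, had 2 UMIs (76.9 times lower, 21.3 to 635), Chga, of neuroendocrine granules, 1 UMI (56.8 times lower, 10.2 to 2.24e+03), Chn2 1 UMI (93.3 times lower, 16.7 to 3.69e+03) and Tafa1 2 UMIs (27.4 times lower, 7.56 to 227). Sh2d6, a tuft cell gene, had 5 UMIs in members (log2 difference -5.28, edgeR adjusted p = 0.00665), Fyb 11 (-4.34, 0.0198), the cornified envelope gene Sprr2d 6 (-5.81, 0.0198) and the suprabasal keratin gene Krt1 4 (-4.88, 0.0198). At such counts a fitted log2 difference depends on the prior count.

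Read by gene list, calls were few in each list. Over all genes tested 0.897% were higher in members and 0.83% lower, and a single call is not read as a result about its list. Of 14 collagen receptor genes, 6 were tested and Antxr1 rose. Itgb1 (138, 177, 145 and 90.7 CPM in members), Dag1, Ddr1, Itga3 and Antxr2 did not pass. The 6 receptor genes had 3 positive and 3 negative log2 differences (median -0.00695). Of 24 basement membrane genes, 13 were tested and 1 rose, Lama3, the laminin chain of epithelial anchorage, at 132, 153, 131 and 113 CPM in members against 67.2, 73.7, 66.8 and 63.2 CPM in the others (log2 1.02 ± 0.19, adjusted p = 0.0400). The 13 had a median log2 difference of 0.52 where all genes tested had -0.0457. Adamts9 was the single call among 9 tested matrix proteases and inhibitors, and 0 of 13 collagen processing genes, 0 of 9 matrix glycoproteins and 0 of 2 fibrillar or associated collagens passed. For the last, Col12a1 was at 60.8, 174, 168 and 100.1 CPM in members against 59.7, 87.7, 63.8 and 54.2 CPM in the others (log2 0.91, adjusted p = 0.0764).

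Lists of signalling and antigen presentation gave single calls, where 0.897% of all genes tested were higher in members. Ltbp2, a matrix protein of the latent TGF-beta binding family, rose (log2 1.26, adjusted p = 0.0387) as 1 of 17 tested genes of the TGF-beta pathway, and the Notch coactivator gene Maml2 rose (1.28, 0.0293) as 1 of 12. Tnfrsf11a, the RANK receptor gene, rose (1.01, 0.0358) as 1 of 7 Aire stage genes, and Nlrc5, the transactivator of MHC class I, rose (1.11, 0.0396) as 1 of 10 MHC class I genes. Most genes of both lists went the other way. The Aire stage list had 2 positive and 5 negative log2 differences (median -0.26), and the MHC class I list 3 positive and 7 negative (median -0.20). Of 11 MHC class II genes 0 passed, with a median of -0.54, and Cd74 was at 6136, 5640, 1739 and 2183 CPM in members against 7550, 5771, 4417 and 3980 CPM in the others (adjusted p = 0.250). Of 9 immature medullary genes 0 passed. Krt5 was at 2592, 3106, 802 and 794 CPM in members against 1127, 2114, 766 and 678 CPM in the others (adjusted p = 0.231), and its lowest value in NOD, 1127 CPM in the others, lay above both BALB/c values of members.

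Single genes of the lists of other epithelial programs fell, where 0.83% of all genes tested were lower in members. Of 21 tested broad epithelial genes 2 fell, the simple epithelial keratin gene Krt8 at 797, 820, 761 and 647 CPM in members against 1398, 1363, 1938 and 1680 CPM in the others (log2 -1.003 ± 0.19, adjusted p = 0.0406), and the tight junction gene Cldn7 (-1.44, 0.0198). Of 9 tested tuft genes 3 fell, Trpm5, the taste transduction channel gene, among them (-3.30, 0.0476), and all 9 had negative log2 differences. In the microfold (5 tested), neuroendocrine (3) and keratinocyte (9) lists 1 gene fell in each. None of 7 ciliated, 13 cell cycle and 5 muscle genes passed. Of 33 interferon genes Ifi27 fell (-1.47, 0.0366), although 25 had positive and 8 negative log2 differences (median 0.14). Of 8 thymic chemokine genes Ccl20 fell (-3.20, 0.0366), with 3 positive and 5 negative log2 differences in that list.

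The number of calls depended on the choice of barcodes. Most directions of the called genes stayed the same. The alternatives reuse barcodes of the main fit and follow genes picked by it, so kept directions are no independent check. With mice called at 90% instead of 80% of their hashtag UMIs, NOD 2 fell under the 10 members required, and 4 genes were higher and 21 lower in the remaining 3 mice. Leaving out any 1 of the 4 mice left 5 to 29 genes higher and 18 to 71 lower, and with at least 5 collagen VI UMIs required, which dropped BALB/c 1 with 7 members, 0 passed, although all 180 of the 181 genes still tested kept their direction. With all barcodes that passed a lineage list left out of both sums, an alternative chosen after seeing the data that also dropped NOD 1 for having under 10 members left, 550 genes were higher and 987 lower; of 123 of the 181 genes tested there 110 were called and 119 had the same direction, and Krt5 turned to a log2 difference of -0.82 (edgeR adjusted p = 0.00816).

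**Figure D3:**
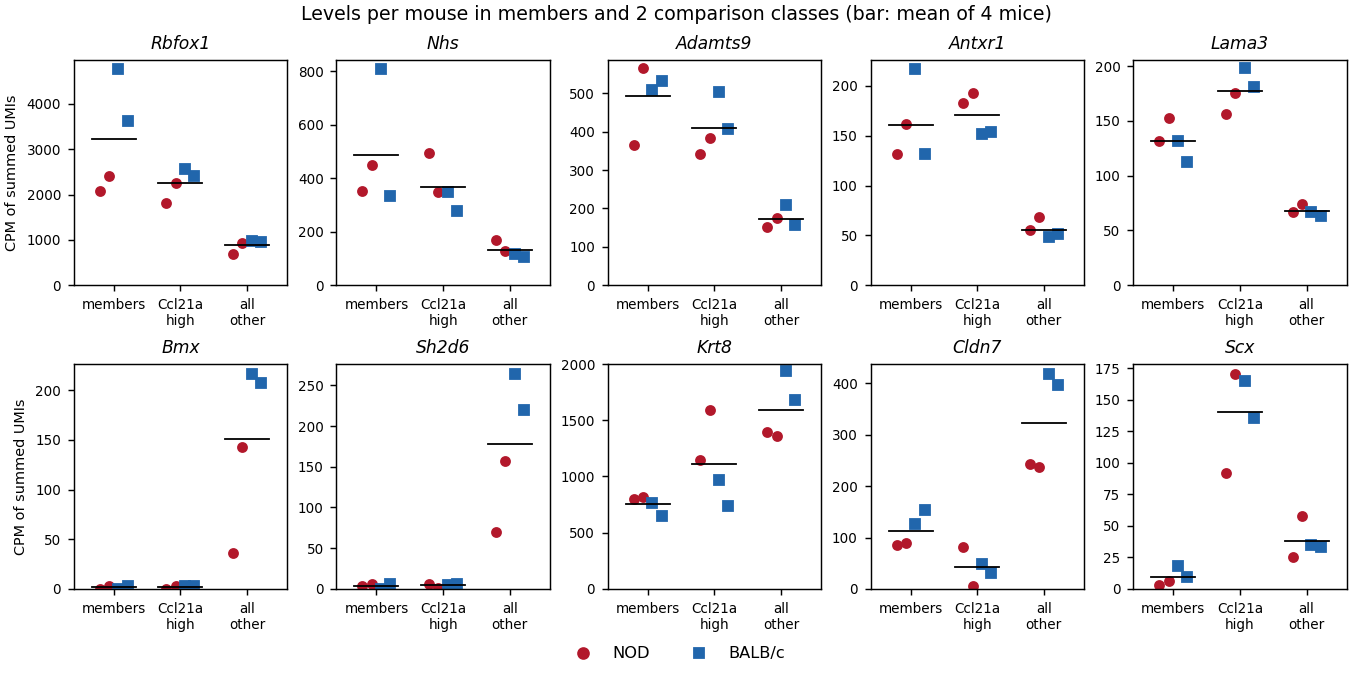
Level (CPM) of 10 genes in the summed barcodes of each mouse, with members left of Ccl21a-high barcodes and of all other epithelial barcodes, which hold the Ccl21a-high ones; circles are NOD mice, squares BALB/c mice and bars the mean of the 4 mice. Antxr1, Rbfox1, Nhs and Adamts9 overlap between members and Ccl21a-high barcodes, while Scx separates them.

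To place the members beside the nearest population, they were compared with the Ccl21a-high barcodes of the same mice, whatever their collagen VI. Of 6727 genes tested 127 passed (1.89%), 56 higher in members (0.832%) and 71 lower (1.06%). Antxr1 had a log2 difference of -0.02 ± 0.20 (SE, n = 4, edgeR adjusted p = 0.969), with 132, 162, 217 and 131 CPM in members against 183, 193, 152 and 153 CPM in Ccl21a-high barcodes. Rbfox1, Nhs, Adamts9 and Lama3 did not pass either, with log2 differences of 0.53, 0.43, 0.35 and -0.34 and adjusted p-values of 0.295, 0.353, 0.381 and 0.413. A miss of the threshold does not show that the levels are equal. The increase of these genes over all other epithelial barcodes was thus not shown to be particular to barcodes under the Ccl21a bound.

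Matrix genes, the keratin gene Krt14 and the transcription factor gene Scx were lower in members than in Ccl21a-high barcodes. Of all genes tested 1.06% were lower. Members that passed a lineage list held 73.7% of the UMIs of all 107 members. That share includes barcodes with no mouse, which are not in these sums. This comparison was not run without the members that passed a list, so their part in the decreases was not tested. With mice called at 90% of hashtag UMIs, or without NOD replicate 2, 0 genes passed lower. Scx, which encodes scleraxis, a factor of tendon cells, was at 3.38, 5.98, 18.1 and 9.38 CPM in members against 91.6, 170, 164 and 135 CPM in Ccl21a-high barcodes (log2 -3.94 ± 0.34, adjusted p = 0.000409). The groups were far apart in each of the 4 mice, but the same direction in every mouse was a condition for naming the gene. The proteoglycan gene Dcn (log2 -2.87), the myosin light chain gene Myl9 (-2.60), the matrix glycoprotein gene Sparc (-2.48), the cathepsin gene Ctsl (-2.32) and the Wnt receptor gene Fzd2 (-2.32) also fell, with adjusted p-values between 0.00325 and 0.0377. Where members held only a few UMIs of a gene, as for Scx, the fitted log2 difference depends on the prior count. By list, 3 of 7 matrix glycoproteins fell (Dcn, Sparc and Smoc2), as did Col4a1 of 9 basement membrane genes, Mmp14 of 7 matrix proteases, Krt14 of 9 immature medullary genes, H2-Aa of 10 MHC class II genes, Tgfbi of the TGF-beta pathway and 3 of 33 interferon genes. Krt14 was at 814, 1191, 983 and 750 CPM in members against 2638, 2617, 2111 and 2071 CPM in Ccl21a-high barcodes (log2 -1.26, adjusted p = 0.0221). Of 7 smooth muscle genes Myl9 fell, and the summed level of the list ran from 1179 to 1950 CPM in members and from 3082 to 4675 CPM in Ccl21a-high barcodes.

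Genes higher in members than in Ccl21a-high barcodes came from several programs. Cfap299, a gene of motile cilia, was at 23.7, 144, 149 and 56.3 CPM in members against 3.90, 8.18, 9.03 and 2.94 CPM in Ccl21a-high barcodes (log2 3.96 ± 0.33, adjusted p = 0.000409). Lypd3, a gene of suprabasal squamous epithelium, was at 30.4, 105, 72.5 and 216 CPM against 9.74, 4.91, 10.8 and 6.37 CPM (log2 3.78, adjusted p = 0.00676). Abca13 (3.81), the proton pump subunit gene Atp6v1c2 (3.72), Lrmda (2.76) and Serpinb11 (2.75) followed. Of 14 immediate early genes 2 rose, Fos (1.37, adjusted p = 0.0134) and Fosb (1.89, 0.00991). Of the 47 members that passed a lineage list, 18 had no mouse and are not in these sums. Those of the NOD and BALB/c mice are in them. With mice called at 90% of hashtag UMIs, or without NOD replicate 2, 0 genes passed in either direction, and without NOD replicate 1, 155 passed higher and 123 lower. Without 1 of the BALB/c mice, 13 to 28 passed higher and 11 to 23 lower.

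The share of members among epithelial barcodes was largest in the NOD mice. It was 14.7% (15 of 102, exact Clopper-Pearson 95% interval 8.47 to 23.1) in NOD 1 and 19.1% (21 of 110, 12.2 to 27.7) in NOD 2. It was 5.03% (17 of 338, 2.96 to 7.93) and 4.65% (24 of 516, 3 to 6.84) in the BALB/c mice, and 0.568% (1 of 176, 0.0144 to 3.12) and 2.16% (4 of 185, 0.592 to 5.44) in the B6 mice. The strains did not overlap, and the means were 16.9 ± 3.1% in NOD, 4.84 ± 0.268% in BALB/c and 1.37 ± 1.13% in B6 (SD, n = 2 each). An exact two-sided permutation test over the 3 strains gave p = 0.0667, the smallest value 90 arrangements allow. The same test gave 0.333 for NOD against BALB/c and for NOD against B6, the smallest that 2 mice against 2 allow. BALB/c against B6 was not tested.

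The order of the strains held under other counts. With every barcode thinned to 5000 UMIs the shares were 9.88% and 6.19% in NOD, 1.01% and 2.56% in BALB/c and 0% and 0% in B6. With Ccl21a-high barcodes left out of the denominator they were 22.1% and 29.6% in NOD, 6.54% and 6.4% in BALB/c and 0.592% and 2.3% in B6. The Ccl21a-high barcodes themselves made up 33.3% and 35.5% of epithelial barcodes in NOD, 23.1% and 27.3% in BALB/c and 3.98% and 5.95% in B6. A further 25 members had no mouse, 6 with under 100 hashtag UMIs and 19 with UMIs from more than 1 hashtag.

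**Figure D4:**
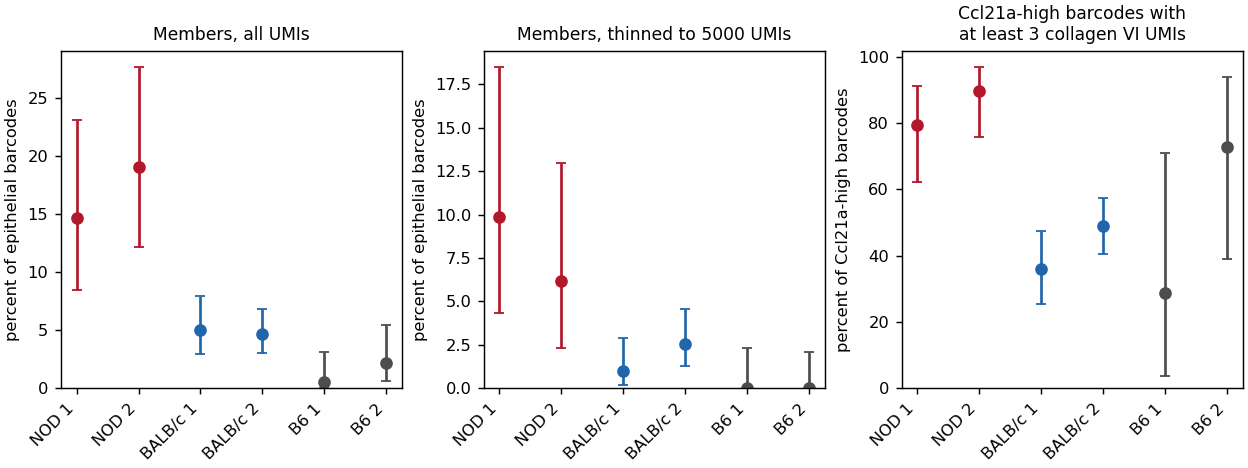
Share of epithelial barcodes (percent) that were members in each mouse, with all UMIs and after thinning to 5000 UMIs, and share of Ccl21a-high barcodes with at least 3 collagen VI UMIs; points are single mice and bars the 95% Clopper-Pearson intervals, which cover counting error only. Both NOD mice lie above both BALB/c mice in each panel, and the B6 intervals of the last panel, on 7 and 11 barcodes, are wide.

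Collagen VI levels in NOD also lay above those in BALB/c outside the members. Within members the level is bounded from below by the rule, and Col6a1 was at 294 and 335 CPM in NOD members and 204 and 210 CPM in BALB/c members, given as a description. In Ccl21a-high barcodes, which were not chosen by collagen VI, Col6a1 was at 499 and 492 CPM in NOD and 127 and 175 CPM in BALB/c (log2 difference 1.72 ± 0.16, SE, n = 2 each, edgeR adjusted p = 2.37e-06). Col6a2 was at 376 and 345 CPM in NOD and 60.5 and 101 CPM in BALB/c (log2 2.14 ± 0.21, adjusted p = 2.82e-05). Of 9409 genes tested in these barcodes 528 passed (5.61%), 323 higher in NOD (3.43%) and 205 lower (2.18%). A count of at least 3 collagen VI UMIs was reached by 27 of 34 (79.4%) and 35 of 39 (89.7%) Ccl21a-high barcodes of the NOD mice, 28 of 78 (35.9%) and 69 of 141 (48.9%) of the BALB/c mice, and 2 of 7 (28.6%) and 8 of 11 (72.7%) of the B6 mice. In the whole of the other epithelial barcodes, where 744 of 14853 genes passed (5.01%; 2.15% higher in NOD and 2.85% lower), Col6a1 was at 134 and 168 CPM in NOD and 29.9 and 45.2 CPM in BALB/c, and Col6a2 at 98.3 and 116 CPM in NOD and 14.96 and 25.4 CPM in BALB/c. These levels are given without a test, because the rule took barcodes with at least 3 collagen VI UMIs out of this class, and took a larger share in NOD. The class also holds the Ccl21a-high barcodes, which were themselves a larger share in NOD.

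Kcnip4, which encodes a potassium channel interacting protein of the Kv4 complex, was found in 8 of 15 and 12 of 21 members of the NOD mice and in 0 of 17 and 5 of 24 members of the BALB/c mice. The gene lies at chr5:48389502-49524907. It had 414 UMIs in 32 members, and 10 barcodes held 72.2% of them. It was at 453 and 655 CPM in the NOD members and at 0 and 59.4 CPM in the BALB/c members. In the B6 mice it was at 1475 CPM in 1 barcode with 4 UMIs and at 43.9 CPM in 4 barcodes. The NOD members thus lay above the BALB/c members in each mouse, by 15.9 times in summed CPM (353 against 19 UMIs, counting interval 10.1 to 26.8). Among members this did not pass the test over mice (log2 4.23 ± 1.19, edgeR adjusted p = 0.465, n = 2 each).

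Outside the members the Kcnip4 difference between strains passed. In Ccl21a-high barcodes it was at 347 and 234 CPM in NOD (21 of 34 and 18 of 39 barcodes) and at 9.93 and 9.30 CPM in BALB/c (4 of 78 and 8 of 141), with a log2 difference of 4.93 ± 0.25 (SE, edgeR adjusted p = 6.1e-10, n = 2 each). In the other epithelial barcodes as a whole it was at 98.3 and 104 CPM in NOD and at 19.8 and 14.9 CPM in BALB/c (log2 2.65, adjusted p = 0.00327). That class holds the Ccl21a-high barcodes, a larger share in NOD, and the rule took more collagen VI barcodes out of it in NOD. The part of this make-up in the Kcnip4 difference was not tested. Against the other epithelial barcodes of the same mouse the members' difference did not pass (log2 1.87 ± 0.76, adjusted p = 0.255), and in BALB/c 1 it ran the other way. Thinned to 5000 UMIs, Kcnip4 was found in 28.3% of members, 19.8% of Ccl21a-high barcodes with collagen VI, 2.73% of Ccl21a-high barcodes with less collagen VI, 4.01% of other epithelial barcodes under the bound and 0% of leukocyte-type barcodes.

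Between NOD and BALB/c members, 10 of 5857 genes passed (0.171%), 4 higher in NOD (0.0683%) and 6 lower (0.102%), and 543 genes had an unadjusted p under 0.05. Rpl26, a ribosomal protein gene, was at 1004 and 1364 CPM in NOD members and 63.4 and 65.7 CPM in BALB/c members (log2 4.38 ± 0.34, SE, n = 2 each, edgeR adjusted p = 0.0148). The same difference stood in Ccl21a-high barcodes (1520 and 1423 CPM in NOD, 106 and 116 CPM in BALB/c) and in the other epithelial barcodes (1670 and 1695 CPM in NOD, 97.6 and 126 CPM in BALB/c). Rpl26 has near-identical copies in the genome, so reads may be divided between them and the value is uncertain. Matn1, which encodes the cartilage matrix protein matrilin 1, was at 132 and 135 CPM in NOD members and 0 and 3.13 CPM in BALB/c members. That is 84 against 1 UMIs, 72.1 times higher in NOD (12.6 to 2.88e+03, edgeR adjusted p = 0.0348). It was found in 5 of 15 and 7 of 21 NOD members, with 56.4% and 68.9% of the UMIs in the top barcode. In Ccl21a-high barcodes Matn1 was at 244 and 96.5 CPM in NOD and 7.23 and 17.1 CPM in BALB/c.

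Of the genes lower in NOD members, Scgb1a1 and Kcnh7 had most of their BALB/c UMIs in a single barcode of each mouse. Scgb1a1, the club cell secretoglobin gene, had 1 UMI in NOD members and 338 in BALB/c members (adjusted p = 0.0200). In BALB/c 1 all 90 UMIs were in 1 barcode, and in BALB/c 2 a single barcode held 182 of 248. Kcnh7, a potassium channel gene, was at 0 and 8.98 CPM in NOD and 358 and 322 CPM in BALB/c (adjusted p = 0.0334), with 77 of 79 and 103 of 103 UMIs in 1 barcode of each BALB/c mouse. Hrnr, of the cornified envelope, had 0 UMIs in NOD members and 145 and 156 CPM in BALB/c members, at least 31.9 times lower in NOD from a floor of 3 counts over the group (adjusted p = 0.0348), and in BALB/c 1 all 32 UMIs were in 1 barcode. The other calls were Gm49980 and Rps24-ps3 (higher in NOD) and Tmem181c-ps, Gm15772 and Gm8113 (lower), named after their values were seen. Without NOD replicate 1, 0 of the 10 were called, and without NOD replicate 2, 105 genes passed higher in NOD and 18 lower. Without BALB/c replicate 1, 15 passed higher and 73 lower.

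H2-Ea, an MHC class II gene that is intact in BALB/c and defective in NOD and B6, was used to check the BALB/c label against the NOD and B6 labels. It was at 40.6 and 8.98 CPM in NOD members, 258 and 310 CPM in BALB/c members, and 0 and 10.97 CPM in B6 members. In Ccl21a-high barcodes it was at 13.6 and 8.18 CPM in NOD and 1310 and 1278 CPM in BALB/c (log2 -6.87). The split of BALB/c barcodes from NOD and B6 barcodes therefore matched the gene, although within members the difference between NOD and BALB/c did not pass. A gene that is low in both NOD and B6 cannot check these labels against each other. When the strain difference in members was compared with that in the other epithelial barcodes, 1 of 11911 genes passed (0.0084%), Scgb1a1 (log2 -9.09 ± 0.69, edgeR adjusted p = 0.0118).

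**Figure D5:**
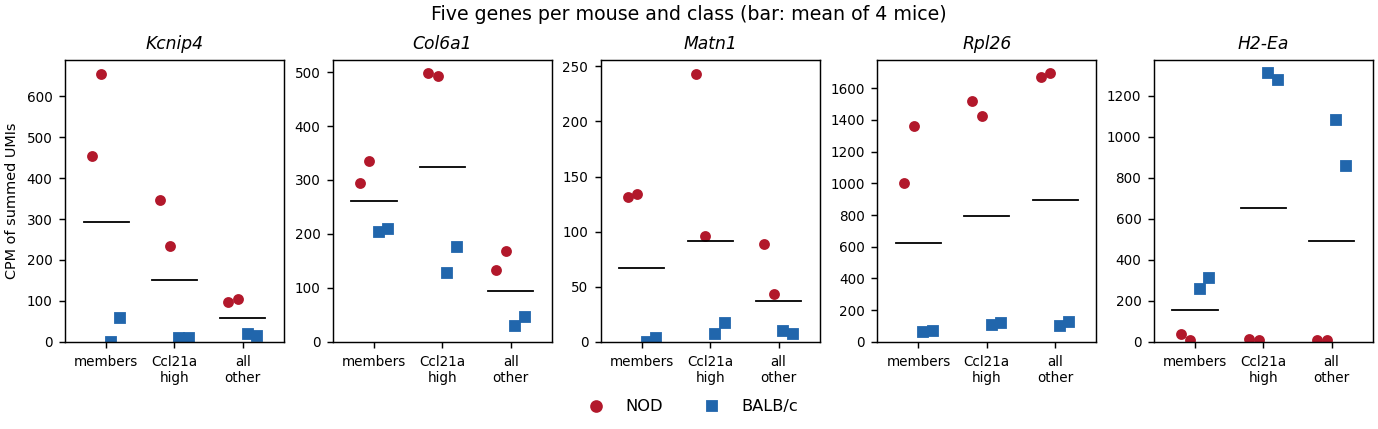
Level (CPM) of Kcnip4, Col6a1, Matn1, Rpl26 and H2-Ea in the summed barcodes of each mouse, by class, with NOD (circles) left of BALB/c (squares) and a bar at the mean of the 4 mice. Kcnip4 is at 453 and 655 CPM in NOD members and at 0 and 59.4 CPM in BALB/c members.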

How the data were processed

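The library held RNA and hashtag reads of sorted thymic epithelial cells from 6 mice. The authors deposited whole-number UMI counts per gene and hashtag for 3447 barcodes, with no normalization, made with Cell Ranger 7.0.0 on mm10 per the submitters' processing notes. The annotation release and the barcode filter were not given in the sources used here. Counts of 55487 gene identifiers were summed to 55367 symbols. Coordinates come from GENCODE M21, matched by identifier with its version, and promoters from RefSeq on GRCm38.p6.

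A barcode was given to a mouse when 1 hashtag held at least 80% of the UMIs of the 6 hashtags and these reached 100. The other 9 hashtags in the table are not of this pool. No doublet caller was run, and barcodes with mixed hashtags stayed out of comparisons between mice. Sums of counts by mouse and class, with at least 10 members per mouse, entered edgeR 4.0.16 and its quasi-likelihood F test (TMM, filterByExpr, robust), with Benjamini-Hochberg adjustment over all genes tested and a threshold of 0.05. The mouse was a block where both sums came from the same mouse, so pairing comes from the design. Gene UMIs per mouse in the members were 295941 and 334203 in NOD, 220820 and 319802 in BALB/c and 2712 and 91142 in B6. Intervals are Clopper-Pearson or exact Poisson and cover counting error only. Fits were also run on simulated counts, with 1 dispersion for all genes and no mouse effect. No result here rests on that run.

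Genes were named by rule: for members against other epithelial barcodes the 14 largest increases and 10 largest decreases past the threshold with at least 50 CPM in the higher class and the same direction in every mouse; against Ccl21a-high barcodes 6 each way; for strains up to 10 each way with mice not overlapping; of each gene list the most changed called genes and the most abundant gene; and the collagen VI chains, collagen receptors, Kcnip4 and H2-Ea. Predicted genes and pseudogenes were left out. A gene that the rule names is not reported here. A few list genes printed for Ccl21a-high barcodes were picked as that list's calls. Members and lists were chosen with earlier results of these data known. The comparison of strains in Ccl21a-high barcodes was added after seeing the data. Alternatives covered normalization (RLE), DESeq2 1.42.0, the low count filter, hashtag margin, mitochondrial bound, collagen VI threshold, depth, the block and single mice. R 4.3.3, limma 3.58.1, Python 3.11.15, NumPy 2.4.6, SciPy 1.17.1 and pandas 2.3.3 were used.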

Additional observations from a re-analysis of the deposited data

Results flagged for a closer look

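Scgb1a1 differed between strains in a way that differed between classes. Its NOD against BALB/c difference in members minus that in the other epithelial barcodes was -9.09 on the log2 scale (SE 0.69, edgeR adjusted p = 0.0118 for the interaction term, 2 mice of each strain). It rests on 1 UMI in NOD members and 338 in BALB/c members, of which single barcodes held 90 of 90 in BALB/c 1 and 182 of 248 in BALB/c 2.

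Hashtags that were not of this pool had UMIs in the members. HT4 had 83 UMIs, HT9 had 145 and HT12 had 135. All 9 such hashtags held 367 UMIs in members, against 411503 UMIs of the 6 hashtags of the pool in the same barcodes. Over all 3447 barcodes HT4 had 3282, HT9 had 3249 and HT12 had 3303 UMIs.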

How the results depend on the processing

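Calls per comparison are given as higher and lower genes. For members against other epithelial barcodes (94 higher, 87 lower), DESeq2 gave 358 and 363, no low count filter 237 and 1004, the 90% hashtag margin 4 and 21, a threshold of 5 collagen VI UMIs 0 and 0, and leaving out 1 mouse 5 to 29 and 18 to 71. Alternatives chosen after seeing the data gave 533 and 348 against barcodes under the Ccl21a bound, 334 and 453 with barcodes thinned to at most 10000 UMIs, and 550 and 987 with lineage barcodes left out, a fit on 3 mice since NOD 1 then had under 10 members. In the last, Krt5 (-0.82), Krt17 (-1.20) and Tpm2 (-1.21) reversed. For members against Ccl21a-high barcodes (56 and 71), no filter gave 429 and 428, the hashtag margin 0 and 0, 5 collagen VI UMIs 15 and 3, thinning 167 and 320, and leaving out 1 mouse 0 to 155 and 0 to 123. For NOD against BALB/c members (4 and 6), DESeq2 gave 21 and 13, no filter 204 and 172, thinning 22 and 13, and leaving out 1 mouse 0 to 105 and 0 to 73. In the other epithelial barcodes (320 and 424), DESeq2 gave 499 higher, no filter 1078 and 1538, and leaving out 1 mouse 97 to 607 and 107 to 825. In Ccl21a-high barcodes (323 and 205), DESeq2 gave 132 and 52, no filter 335 lower, thinning 174 and 107, and leaving out 1 mouse 159 to 314 and 125 to 241. For the difference of strain differences (0 and 1), DESeq2 gave 6 and 13, no filter 66 and 52, thinning 3 and 4, and leaving out 1 mouse 5 to 45 and 7 to 53. The cause of these shifts was not tested.

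Without the replicate block, that is without pairing the sums by mouse, 133 higher and 71 lower genes were called against other epithelial barcodes and 45 and 50 against Ccl21a-high barcodes. No paired analysis was possible for the strain contrasts because the mice of different strains share only numbers, and both NOD mice carry the same one. The strain differences in share kept their direction under every alternative run, in a design that cannot reach 0.05; NOD minus BALB/c was 12.1 percentage points, 6.25 after thinning to 5000 UMIs and 19.3 with Ccl21a-high barcodes out of the denominator, and leaving out 1 mouse gave 9.87 to 14.3 percentage points for NOD minus BALB/c, 13.3 to 17.7 for NOD minus B6 and 2.68 to 4.27 for BALB/c minus B6. Of the values of named genes against other epithelial barcodes, each gene counted once per alternative, 833 kept direction and side of the threshold, 176 lost the threshold, 44 newly passed it and 3 reversed. Strain fits at the 90% margin, and at 5 collagen VI UMIs within members, were not run because 1 mouse had under 10 members; the same held with lineage members left out. Depth limits the members of the B6 mice most, with 2712 and 91142 UMIs.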
